A study of Synthetic plasmid and Mus musculus with 4 samples.

Results

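The B sites numbered 1 to 500 are mouse genomic regions whose fragments were tested for transcriptional activity in cerebral cortex and retina with a barcoded reporter library. They were chosen by their name alone, the letter B with a number of 500 or below. The library held 405 of them, with 5294 constructs, among 3483 sites with 45670 constructs in all, and 95 of the 500 numbers had no construct in the table used here. B, R, H and L are the 4 classes of sites. The tables give only these letters. In the study, from knowledge of it, they stand for DNase hypersensitive sites of brain (B), retina (R), heart (H) and liver (L). A site was tested in a tissue where 5 or more of its constructs passed, that is, had 10 or more DNA counts in each replicate there. That left 220 of the 405 sites in cortex and 211 in retina, and the remaining sites are described at the end of each tissue's account.

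Fragments of C57BL/6J genomic DNA were captured with RNA baits and cloned into barcoded plasmids, and barcodes were counted in RNA and in DNA from tissue of CD-1 mice. Each of the 3 retina replicates pooled 5 retinas, which took up the plasmids by ex vivo electroporation at postnatal day 0 and were kept in culture for 8 days. For cortex, AAV (adeno-associated virus) carrying the library was injected stereotactically into mice aged 4 to 6 weeks, and 4 to 5 weeks later the GFP-positive tissue was dissected out, with 1 animal for each of the 3 replicates. All animals were of one strain, none carried a labelled genetic change, and every replicate gave an RNA and a DNA library. Tissue, age, way of delivery and sequencing lane change together between the tissues, so their parts in a difference between cortex and retina cannot be told apart. The libraries count barcodes only, so the tissues were not checked against marker genes.

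DNase hypersensitive sites are stretches of open chromatin where nucleosomes are displaced by bound transcription factors, and they mark enhancers and promoters. Many enhancers are open and active in few cell types, and a site open in whole brain may work in neurons, in glia or in cells outside the cortex. A reporter fragment carries only the local DNA of a site, away from its own chromosome, and in principle an enhancer can drive a reporter in either orientation.

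Activity is given here as relative activity, on a linear scale. It is the RNA count over the DNA count of a site or construct, divided by the same ratio of all H and L constructs of that replicate. A value of 1 (log2 of 0) is therefore the pooled level of the H and L classes, which was taken as the background in both tissues. The library totals ran from 4000439 to 9674859 RNA counts and from 3999412 to 10769648 DNA counts in cortex, and from 7025820 to 10411511 and from 6501061 to 12147398 in retina. Among B constructs of numbers 1 to 500 that passed, the median DNA count of a construct over the 3 libraries was 120 in cortex and 179 in retina.

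A construct is known by its barcode, a short tag in the transcript that was counted in its place. The barcodes printed here belong to the constructs on which the results below turn, and they are the strongest and weakest constructs of the 3 tested sites with the highest fitted log2 in cortex, followed by the constructs of B376 and B326. They are in lower case throughout since no base of a tag is singled out, and they say nothing of the site's own sequence, which is not analysed here.
B352 strongest in cortex and retina: atcctaagcttcac
B352 weakest in cortex: accccatgcggcgca
B83 strongest in cortex: ccccccttgctggct
B83 without RNA in cortex: atggagcctctctcg
B83 without RNA in cortex: cggtcatttcccctt
B272 strongest in cortex: ccccggccccactca
B272 weakest in cortex: ctatcccctagcaga
B376 strongest in cortex: actaaactgcagaac
B376: catctcggagccctt
B376: ttccagccagcaaca
B376: tcctcacacttcgaa
B326 strongest in retina: ctacacatttcgccg
B326 without RNA in retina: tccaccacacggaag

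The fragments had a median length of 465 bases (180 to 688), and 48.3% lay on the plus strand. A site had a median of 6 constructs in the library and at most 112. The table gives each fragment's overlap with its site, which reaches at most 300 bases, and from these overlaps a window of 300 bases could be placed for 328 of the 405 sites. Of the 5294 fragments 43.2% covered the whole window, against 41.7% of the fragments of B sites numbered above 500. Coordinates below are those windows, in the mouse build mm9, counted from 1. Which genes lie at them is not analysed here.

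In cortex the B sites numbered 1 to 500 gave more RNA for their DNA than the H and L classes. The 4520 constructs that passed had a pooled relative activity of 1.48, 1.41 and 1.60 in the 3 replicates (1.50 ± 0.0945, SD, n = 3). The pooled means of the other classes were 1.03 (R), 1.03 (H) and 0.976 (L), so each replicate of the B sites lay above the mean of each of these classes. Their share of the cortex RNA was 13.8% ± 0.445 and that of the DNA 11.6% ± 0.0237 (SD, n = 3). RNA was found for 61.1%, 60.4% and 70.5% of the constructs in the 3 replicates, and 10.8% of the constructs had none in any replicate.

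Of the 220 sites tested in cortex, 16 (7.27%) were higher in RNA than the H and L level at an adjusted p under 0.05 by edgeR's quasi-likelihood test. Over all 2108 sites of the 4 classes 2.8% passed in that direction. No B site numbered 1 to 500 passed as lower, where 0.0474% of all sites did, although 9 had an unadjusted p under 0.05 and DESeq2 called 4. The test called 0 of 508 H sites and 0 of 645 L sites higher, with 14 and 10 at an unadjusted p under 0.05, and it called 7 of 494 R sites. Since the H and L classes set the zero of the test, the lack of calls among them is no independent check. The median log2 relative activity of the 220 sites was -0.02, against -0.15 over all sites. All 16 sites lay above 1 in each of the 3 replicates, as did 45 of the 220 sites in all, and 38 lay below 1 in each.

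The called sites carried a large part of the RNA. They made up 26.1% ± 1.13 of the RNA of the B sites numbered 1 to 500 and 7.72% ± 0.0781 of their DNA (SD, n = 3). All other constructs together still had a relative activity of 1.20 ± 0.0698. They include the 377 constructs of sites with too few constructs to be tested, which stood at 2.57 ± 0.46 (SD, n = 3). The 204 sites that did not pass had fitted log2 values from -3.77 to 1.32 and mean relative activities from 0.176 to 3.16, with a median of 1.03. The sites were not ranked alike by single replicates. Over the 220 sites the relative activities had Spearman correlations of 0.30 to 0.41 between replicates. The constructs of a site were the same in each replicate, while each replicate had its own DNA library.

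B352 (chr6:144966866-144967165) was the most active tested site in cortex. Its relative activity was 18.6, 12.9 and 18.8 in the 3 replicates (16.8 ± 3.32, SD, n = 3). The replicates did not come near the background of 1, and the fitted log2 was 4.05 (SE 0.19, adjusted p = 4.56e-09). The site had 7 constructs, and 98.5% of its cortex RNA came from 1 of them, atcctaagcttcac. Without that construct the site stood at a log2 of -0.10 (adjusted p = 0.969), so its value is that of 1 construct.

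B83 (chr14:28083046-28083345) was the next, and many of its constructs were active. It had 26 passing constructs, and its relative activity was 9.16, 8.59 and 9.29 (9.01 ± 0.373, SD, n = 3). Its replicates lay closer together than those of B352 or of B272, and the log2 was 3.17 (SE 0.17, adjusted p = 1.55e-08). RNA was present in all 3 replicates for 17 of the 26 constructs and absent from all for 2. A single construct gave 45.7% of its cortex RNA, and without that construct the log2 was 2.71 (adjusted p = 4.65e-07).

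B272, B195 and B205 followed at nearly the same mean level. B272 (chr12:83205246-83205545, 9 constructs) gave 6.34, 8.50 and 8.80 (7.88 ± 1.34, SD, n = 3; log2 2.96, SE 0.22, adjusted p = 6.35e-07). B195 (chr13:105752906-105753205, 15 constructs) gave 10.8, 4.88 and 7.99 (7.89 ± 2.97; log2 2.91, SE 0.26, adjusted p = 3.46e-06). B205 (chr5:74648946-74649245, 12 constructs) gave 7.54, 4.71 and 11.8 (8.03 ± 3.58; log2 2.90, SE 0.27, adjusted p = 6.37e-06). The replicate ranges of these 3 sites overlap one another, and the range of B195 and of B205 also holds that of B83, so their order is not resolved.

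The sites of the next group stood at about 4 to 5 times the H and L level. B314 (chr1:83273666-83273965, 12 constructs) gave 6.28, 3.99 and 5.75 (log2 2.39, SE 0.24, adjusted p = 1.45e-05). B410 (chr2:59439066-59439365), with 44 constructs and the largest share of the group's cortex RNA (3.41% ± 0.275, SD, n = 3), gave 4.14, 4.30 and 5.81 (log2 2.23, SE 0.17, adjusted p = 7.23e-07). B462 (chr7:107095846-107096145) gave 5.05, 3.90 and 4.03, and each of its 9 constructs had RNA in all 3 replicates. It was the 1 site among the 16 for which that held.

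B440 (chr6:117963586-117963885) gave 3.55, 4.26 and 4.88 over 39 constructs, of which 31 had RNA in every replicate. B102 (chr4:147735086-147735385) gave 4.32, 4.17 and 4.08 over 37 constructs (4.19 ± 0.125, SD, n = 3), the smallest spread of the 16 (log2 2.07, SE 0.18, adjusted p = 2.43e-06). B442 (chr10:84426546-84426845) gave 3.49, 4.64 and 4.24 over 30 constructs. From B314 to B442 the replicate ranges overlap, so these sites have no order beyond their spread.

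The remaining 5 sites were weaker or rested on few constructs. B477 (chr2:85053946-85054245) gave 3.19, 6.25 and 3.37, and B48 (chr11:106684266-106684565) gave 2.67, 6.04 and 3.23, each from 5 constructs. Both were highest in replicate 2, and without that replicate their adjusted p was 0.0811 for B477 and 0.0576 for B48. Without its strongest construct the adjusted p was 0.371 for B477 and 0.232 for B48. B363 (chr5:116976346-116976645) gave 2.63, 4.41 and 3.49 over 21 constructs. B369 (chr15:88934906-88935205) gave 2.21, 2.51 and 3.28 over 57 constructs, the largest number among the 16. B368 (chr15:12145146-12145445) gave 1.83, 3.57 and 2.42 over 13 constructs (log2 1.33, SE 0.29, adjusted p = 0.0176), and its adjusted p was 0.0602 without replicate 2 and 0.124 without replicate 3.

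**Figure D1:**
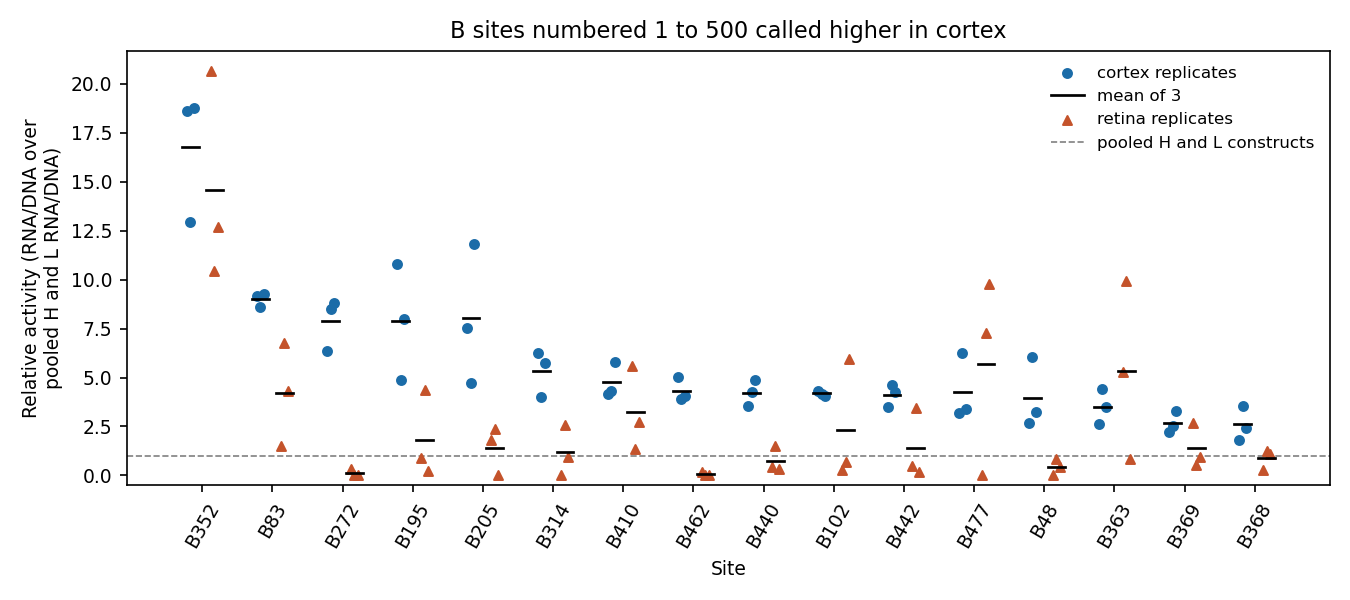
Relative activity (linear axis, dashed line at 1, the pooled H and L level) of the 16 sites called in cortex, with 1 point per replicate in cortex (circles) and retina (triangles) and a bar at the mean. In cortex every point lies above 1, from 1.83 (B368) to 18.8 (B352), while in retina the points of most sites scatter on both sides of 1.

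In cortex the B sites numbered above 500 differed from numbers 1 to 500 in pooled RNA and in the share of called sites. Their median log2 was close, at -0.01 against -0.02. B sites numbered above 500 had a pooled relative activity of 2.79, 2.42 and 2.85 (2.69 ± 0.235, SD, n = 3), which was 1.79-fold that of numbers 1 to 500. The difference, lower minus higher numbers, was -0.91, -0.78 and -0.84 on the log2 scale (mean -0.84 ± 0.069, SD, n = 3). It had one sign in 3 of 3 replicates, and the exact sign-flip permutation test, two-sided, gave p = 0.25, the smallest that 3 replicates allow. Of the sites above 500, 36 of 241 (14.9%) were called higher. No step lay at 500 itself, since 501 to 600 stood at 1.85 and 901 to 1000 at 1.75, near the 1.83 of 401 to 500. The ranges 601 to 700, 701 to 800 and 801 to 900 stood at 2.44, 3.51 and 3.89. Without their top sites (B662, B701 and B880) they stood at 1.70, 2.41 and 2.76. Without the called sites of each group, the rest of the constructs stood at 1.20 ± 0.0698 for the lower and 1.20 ± 0.0494 for the higher numbers (SD, n = 3). The rest includes constructs of sites that were not tested. Those sites were removed for their own cortex RNA, the quantity compared, so this is a description of where the pooled RNA lay and no test of the other sites.

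Within numbers 1 to 500 the pooled value was 1.43 ± 0.0398 for 1 to 100, 1.25 ± 0.0749 for 101 to 200, 1.21 ± 0.166 for 201 to 300, 1.73 ± 0.141 for 301 to 400 and 1.83 ± 0.173 for 401 to 500 (SD, n = 3). The calls fell likewise, with 2 of 38, 2 of 48, 2 of 42, 5 of 44 and 5 of 48 sites. All 3 replicates of each of the last 2 ranges lay above all replicates of the first 3. A single site weighed on some of these values: without the site that gave the most RNA in its range, the first range (without B83) stood at 1.21 ± 0.0327, the fourth (without B352) at 1.51 ± 0.116 and the fifth (without B410) at 1.66 ± 0.148.

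The site-by-site values did not follow the number. Over the 220 sites the Spearman correlation of the number with the fitted log2 was -0.02, and over all 461 B sites tested it was 0.05. The median log2 of a range of 100 numbers lay between -0.07 and 0.11 across the whole B class. The sites of one range share their libraries, and what the numbers stand for is not given in the labels.

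**Figure D2:**
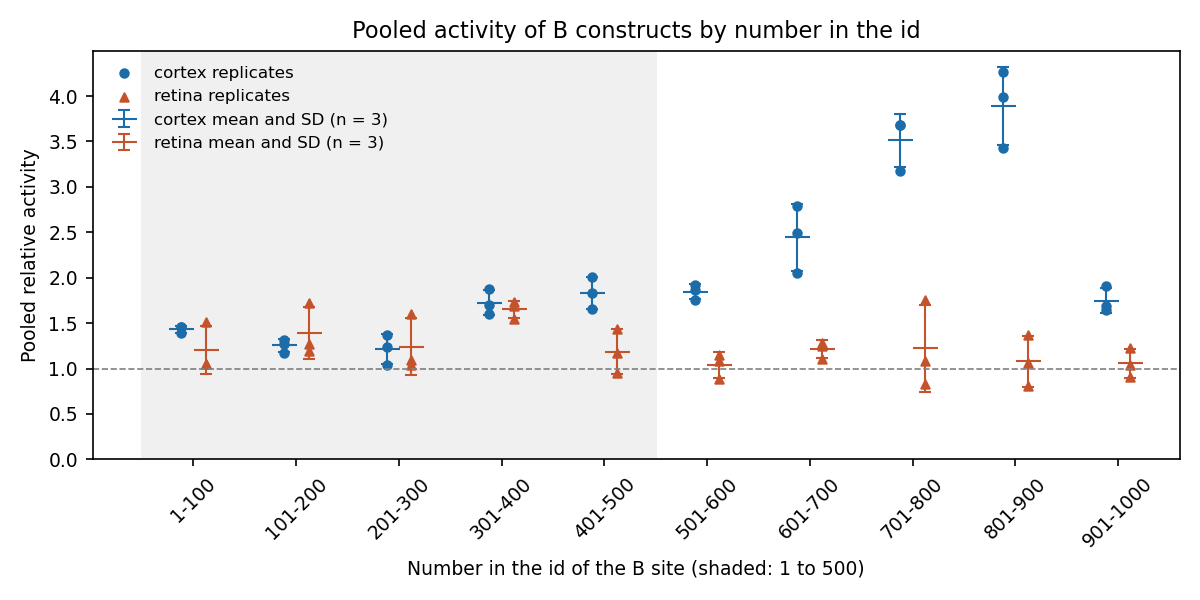
Pooled relative activity of B constructs by ranges of 100 id numbers, in cortex and retina, with a point for each replicate and bars for the mean and SD (n = 3). In cortex the means run from 1.21 (201 to 300) to 3.89 (801 to 900), with the numbers up to 500 at 1.83 or below. The ranges 501 to 600 and 901 to 1000 lie near that, at 1.85 and 1.75. In retina all ranges lie between 1.04 and 1.65.

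The constructs of a site differ in which part of the window they hold. In cortex, fragments with little of the window were at the background when pooled. In the 16 called sites, the 148 constructs with the whole window had a pooled relative activity of 5.97 ± 0.70 (SD, n = 3). The 159 constructs with 150 or more but not all of its bases had 5.24 ± 0.50, and the 34 constructs with fewer than 150 bases had 1.07 ± 0.39. These 34 came from 10 of the 16 sites, so the pooled values of the 3 kinds do not cover the same sites. The whole window exceeded the short overlaps in 3 of 3 replicates, by 2.53 ± 0.67 on the log2 scale, with an exact sign-flip permutation p of 0.25, the smallest possible. In the other sites, tested or not, the same 3 kinds of construct stood at 1.31 ± 0.0394, 1.16 ± 0.109 and 0.938 ± 0.0230. There the whole window exceeded the short overlaps by 0.48 ± 0.0395 on the log2 scale (SD, n = 3). The 16 sites were chosen as called from these same constructs, so their height is no finding. Most of their constructs held 150 or more bases, so the choice also bears on how that height is divided among the fragments. The sign-flip test within the called sites is therefore no independent support, and the division is given as a description.

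Leaving out B352 and B83, which hold the strongest single constructs, gave 5.10 ± 0.82 for the whole window, 4.25 ± 0.34 for 150 or more but not all bases and 1.11 ± 0.455 for fewer (SD, n = 3). Site by site the picture was mixed above 150 bases. Constructs with the whole window had the higher mean in 11 of the 16 sites, and were higher in all 3 replicates in 7, while partial ones were higher in all 3 in 3 sites. B205 had 12.4 ± 5.96 with the whole window and 3.36 ± 1.42 with part of it, B462 had 5.06 ± 0.572 and 1.52 ± 1.05, and B102 had 5.60 ± 0.328 and 2.99 ± 0.357 (SD, n = 3). B314 went the other way, with 3.48 ± 0.752 for the whole window and 6.74 ± 1.69 for part of it.

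**Figure D3:**
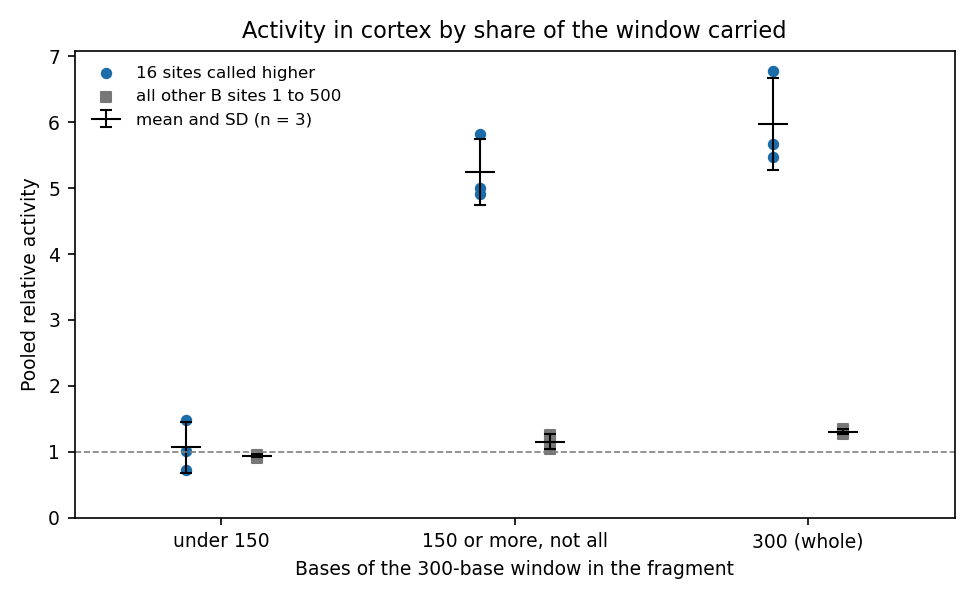
Pooled relative activity in cortex of constructs with fewer than 150, with 150 or more but not all, and with all 300 bases of the site's window, for the 16 called sites and for all other B sites numbered 1 to 500, with 1 point per replicate and bars for the mean and SD. In the called sites the constructs with fewer than 150 bases, which come from 10 of the 16 sites, average 1.07 and the others over 5. In the other sites all 3 kinds lie between 0.938 and 1.31.

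B83 and B272 showed the division most plainly. In B83 the 11 constructs with the whole window had a relative activity of 15.98 ± 0.381 and the 15 with part of it 2.29 ± 0.53 (SD, n = 3). The strongest, ccccccttgctggct, held the whole window with 127 bases before it and 1 after it, on the plus strand, and gave 24.8, 32.8 and 28.0. The constructs atggagcctctctcg and cggtcatttcccctt had no RNA count in cortex from 84 and 192 DNA counts. At 3 counts over the 3 libraries, a floor that covers counting error only, they would stand at a relative activity of 0.0547 and 0.0239. Each held 193 or 157 of the 300 bases, from opposite ends of the window. Whole windows were not all strong, since cttatgttttcctta held all 300 bases of B83 and gave 1.00, 0.305 and 4.56.

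In B272 the 3 constructs with the whole window had 30.2 ± 9.74, and the 6 others, all with fewer than 150 bases, had 0.649 ± 0.46 (SD, n = 3). The construct ccccggccccactca held the whole window and gave 57.6, 16.3 and 59.1. The weakest, ctatcccctagcaga, held the first 142 bases of the window and 405 bases before it, and gave 0.0437, 0.0674 and 0. The groups of constructs did not overlap in their means, since the lowest of the 3 had 11.4 and the highest of the 6 had 2.27.

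B352 was divided differently. Its strong construct atcctaagcttcac held bases 47 to 300 of the window and the 250 bases after it, lay on the minus strand and gave 29.2, 16.95 and 29.3 in cortex. Of the 3 constructs with the whole window, none reached a mean above 2.35, and accccatgcggcgca gave 0, 0 and 0.501. No other construct of B352 holds this stretch together with the DNA after the window to the same extent, so the strong construct has no independent match within its site.

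B410 was higher in part of its window than in the whole. Its 23 constructs with all 300 bases had 3.53 ± 0.64, its 17 with 150 or more but not all bases 7.35 ± 1.04, and its 4 with fewer 0.411 ± 0.528 (SD, n = 3). All its partial constructs pooled exceeded whole ones by 0.84 ± 0.22 on the log2 scale in 3 of 3 replicates. B410 was picked for this difference after its values were seen, so it has no test here. Its plus-strand constructs had 7.79 ± 1.23 (14 constructs) and its minus-strand ones 3.40 ± 0.82 (30 constructs).

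The strand of the fragment had no common direction over the 16 sites. Plus-strand constructs were higher in all 3 replicates in 4 sites and minus-strand constructs in 6. Pooled over the 16 sites, the plus strand stood at 5.14 ± 0.563 and the minus strand at 5.00 ± 0.497 (SD, n = 3), which overlap. Single sites differed by strand without overlap of their replicates. In B314 the 4 minus-strand constructs had 12.8, 5.73 and 9.16 and the 8 plus-strand ones 2.55, 2.23 and 2.81. In B442 the 16 plus-strand constructs had 4.15, 5.98 and 6.53 and the 14 minus-strand ones 2.49, 2.87 and 1.40. These sites were picked for this difference after their values were seen.

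**Figure D4:**
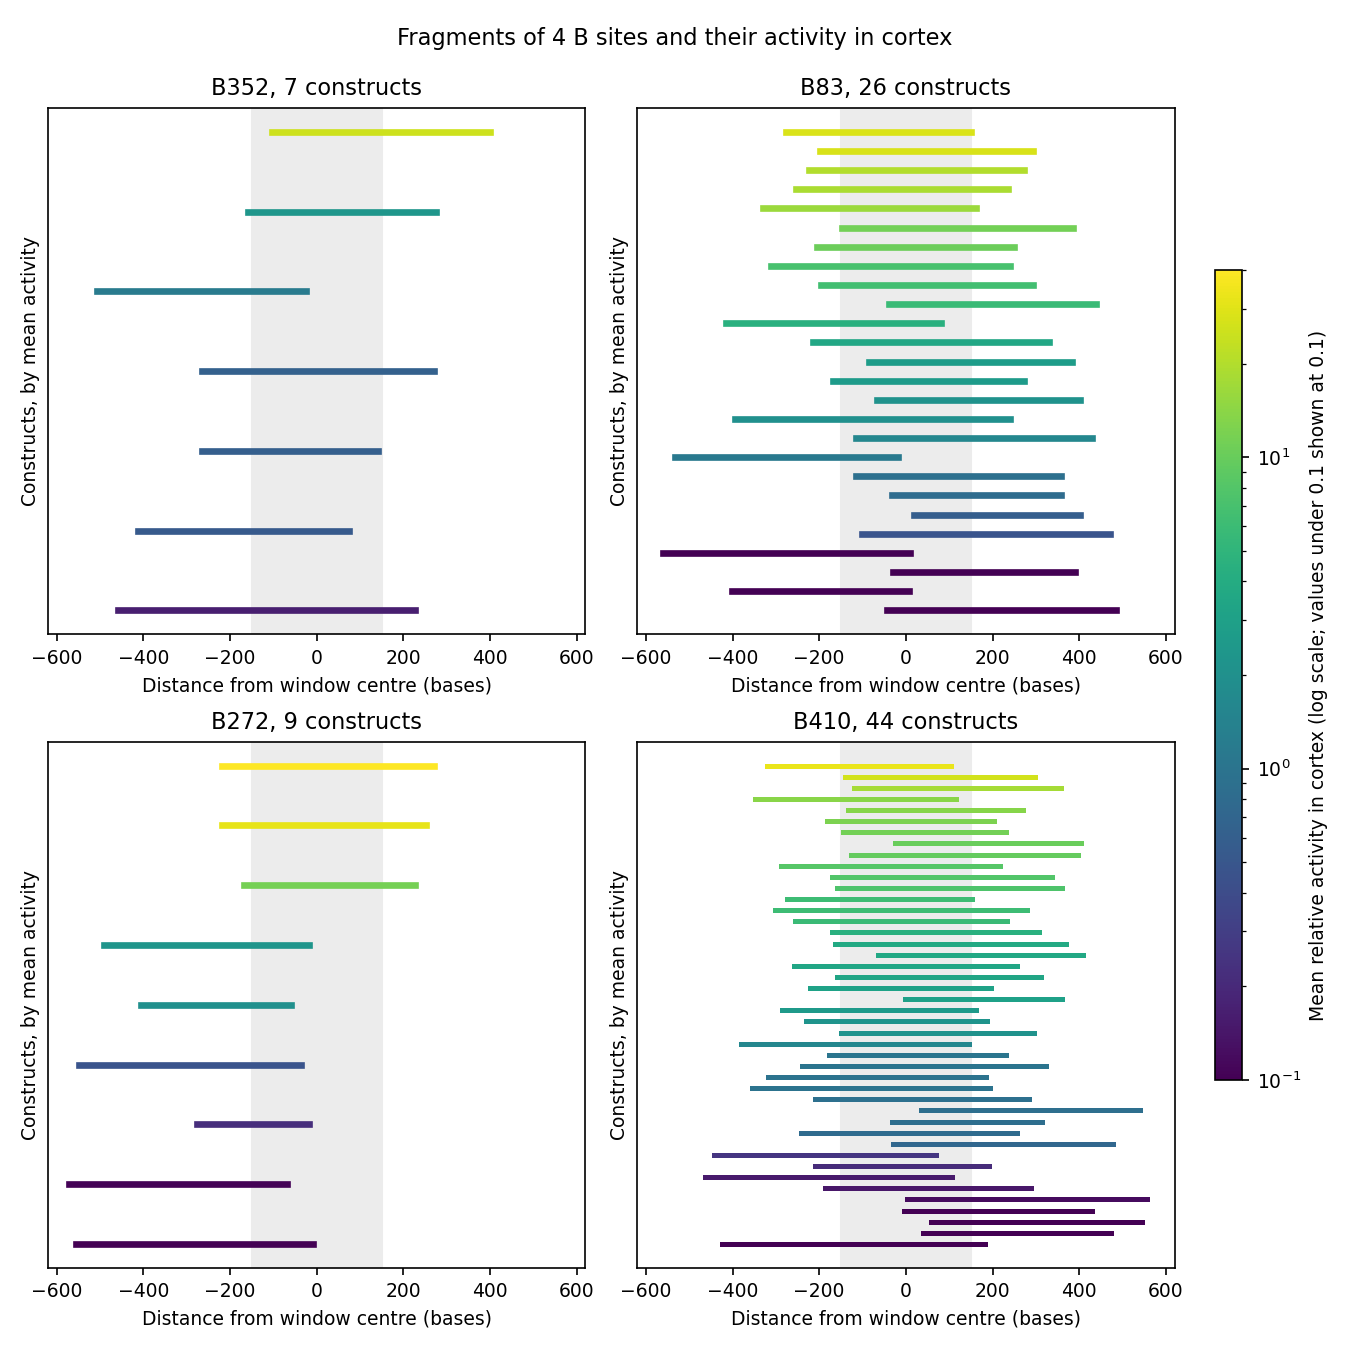
Fragments of B352, B83, B272 and B410, each drawn as a line at its bases relative to the centre of the site's window and coloured by its mean relative activity in cortex (log colour scale, shaded window, constructs ordered by activity). In B83 and B272 the strongest fragments span the whole window, in B352 a single fragment is strong, and in B410 strong fragments include partial ones.

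Of the sites under the minimum of 5 constructs, 175 had 377 passing constructs in cortex and 10 had none. Their pooled relative activity in cortex was 2.57 ± 0.46 (SD, n = 3). One of them, B376 (chr8:14447346-14447645), was higher in cortex than any tested site. It falls outside the rule for naming sites and was chosen after its values were seen. All 4 of its constructs were active, with mean relative activities of 97.6 for actaaactgcagaac, 35.5 for catctcggagccctt, 14.4 for ttccagccagcaaca and 13.5 for tcctcacacttcgaa, the last of which held 209 of the 300 bases. The constructs included both strands. In retina the site had 1 RNA count from 2768 DNA counts.

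The site value of B376 was 53.2, 19.8 and 33.5 (35.5 ± 16.8, SD, n = 3), and with a minimum of 3 constructs its log2 was 5.03 (SE 0.28, adjusted p = 7.65e-08). Without B376 the sites under the minimum stood at 2.19 ± 0.33. With that minimum edgeR called 21 sites higher, the 16 above and 5 more, all named here after their values were seen. They were B376, B58 (log2 4.58), B480 (3.53), B396 (2.69) and B306 (2.35). B58 gave 23.7, 19.8 and 29.3 from 4 constructs, and all 4 lay above the H and L level, while in retina its 3 passing constructs had no RNA count. Of the cortex RNA of B58, 74.7% came from 1 construct. In B396 96.1% of the RNA came from 1 of 3 constructs.

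In retina the B sites numbered 1 to 500 lay slightly above the H and L level and far below the R class. The 4232 constructs that passed had a pooled relative activity of 1.34, 1.27 and 1.43 (1.35 ± 0.0763, SD, n = 3), while R constructs had 52.3 ± 5.71. Since R constructs took nearly all RNA, the B sites numbered 1 to 500 held 1.15% ± 0.15 of the retina RNA and 11.7% ± 0.0429 of the DNA. B sites numbered above 500 had 1.25, 1.15 and 0.969 (1.12 ± 0.14). The lower numbers were higher in 3 of 3 replicates, by 0.10, 0.15 and 0.56 on the log2 scale, and the exact sign-flip permutation test gave p = 0.25, the smallest possible. The mean difference of 0.27 ± 0.25 (SD, n = 3) was about as large as its spread between replicates.

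Detection limited the retina. RNA was found for 9.66%, 13.6% and 12.2% of the constructs in the 3 replicates, 71.0% had none in any replicate and 0.756% had some in all 3, against 36.6% in cortex. Where RNA was found, the median count was 42 in retina and 97 in cortex. Of the 211 sites tested, 8 had no RNA count at all and 115 had RNA in every replicate. The median log2 of the sites was -1.52, against -1.67 over all sites. A log2 of 0 is the level of pooled constructs, and a site without one of the few constructs that carried RNA lies below it.

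By edgeR's quasi-likelihood test 5 of 211 sites (2.37%) were higher in retina, where 9.35% of all 2031 sites and 185 of 477 R sites were. No B site numbered 1 to 500 was called lower, and 0% of all sites were; 16 had an unadjusted p under 0.05, DESeq2 called 40, and edgeR without the replicate block called 10. The test called 0 of 228 B sites numbered above 500 as higher, with 0 at an unadjusted p under 0.05. The background of all sites is set by the R class: 0 of 489 H sites and 0 of 626 L sites were called higher in retina, with 2 and 0 at an unadjusted p under 0.05. As in cortex, the H and L classes set the zero of the test.

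B352 was called in retina as in cortex. Its relative activity in retina was 20.7, 10.5 and 12.7 (14.6 ± 5.36, SD, n = 3; log2 3.80, SE 0.59, adjusted p = 1.34e-09). Again 98.3% of the RNA came from atcctaagcttcac, which gave 33.9, 13.0 and 17.9, and without it the site had a log2 of -0.88 (adjusted p = 0.879). The retina minus cortex difference of B352 was -0.25 on the log2 scale (SE 0.46, adjusted p = 0.785), with replicate ranges that overlap.

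B141 (chr1:133207026-133207325) was high in retina and not in cortex. It gave 3.91, 5.26 and 3.78 in retina (4.32 ± 0.821, SD, n = 3; log2 2.09, SE 0.51, adjusted p = 0.000471) and 0.942, 0.623 and 0.747 in cortex (0.771 ± 0.161). The replicates of the tissues did not overlap, and the difference was 2.52 (SE 0.49, adjusted p = 0.00498). Of its 36 constructs in retina, 17 had RNA and 1 had it in all 3 replicates. That construct, cccccgtcactcccc, gave 8.21, 17.7 and 5.63, while others were high in a single replicate, such as ctgatcttgtgacgc with 0, 0 and 191 and tccgcctccacccat with 0, 110 and 0. Without replicate 2 the retina call was lost (adjusted p = 0.141), while the call of the difference remained without any one replicate of either tissue. With limma on construct means both calls of B141 ended, with a retina log2 of 0.54 (adjusted p = 0.193) and a difference of 0.93 (adjusted p = 0.134).

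The other 3 sites called in retina varied more between replicates. B479 (chr5:64414246-64414545, 6 constructs) gave 22.2, 2.96 and 12.6 (12.6 ± 9.61, SD, n = 3; adjusted p = 0.0258), with 3 constructs that had RNA in all replicates. B170 (chr1:28271126-28271425, 21 constructs) gave 3.15, 4.30 and 9.48 (5.64 ± 3.37; adjusted p = 0.0184). B200 (chr8:128559006-128559305) gave 1.95, 1.48 and 4.00 over 96 constructs (2.48 ± 1.34; adjusted p = 0.0349), of which 2 had RNA in all replicates. Each of these calls was lost without replicate 3, with adjusted p values of 0.466 for B479, 0.702 for B170 and 0.695 for B200. B479 was also lost without replicate 1 (adjusted p = 0.617), B170 (adjusted p = 0.132) and B200 (adjusted p = 0.0560) without replicate 2, and B200 in the fit without the replicate block (adjusted p = 0.0763). With trimmed mean of M values scaling all 3 calls were lost, with adjusted p values of 0.0757 for B479, 0.0590 for B170 and 0.133 for B200. Under the alternatives as a whole, B200 kept its call in only 4. In cortex the means were 1.93 for B479, 1.80 for B170 and 1.14 for B200, and none was called.

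Within numbers 1 to 500 the retina values did not order by number. The pooled values of the 5 ranges up to 500 were 1.20 ± 0.268, 1.40 ± 0.287, 1.24 ± 0.31, 1.65 ± 0.0941 and 1.19 ± 0.245 (SD, n = 3). The Spearman correlation of number and log2 over 211 sites was 0.01. The fourth range was the highest, and without B326, its largest source of RNA, it stood at 1.36 ± 0.113.

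B326 (chr4:82879066-82879365) was the largest single source of retina RNA of the B sites numbered 1 to 500, with 4.63% ± 2.32 (SD, n = 3). It had 2 passing constructs and was not tested, and it is named after its values were seen. The construct ctacacatttcgccg gave 945, 730 and 580 in retina, from 332 DNA counts, and 4.50, 0 and 1.00 in cortex. The other construct, tccaccacacggaag, had no RNA count in retina from 351 DNA counts. At 3 counts, a floor that covers counting error only, it would stand at a relative activity of 0.141. Of all passing constructs of B sites numbered 1 to 500, 71.0% had no RNA in any retina replicate. The floor therefore does not bound the activity of this construct. Both lie on the plus strand and overlap over most of their length, at chr4:82879079-82879427 and chr4:82878896-82879376. The strong construct starts at base 14 of the window and ends 62 bases after it, and the other starts 170 bases before the window and ends 11 bases after it. The 178 sites under the minimum in retina had a pooled relative activity of 1.66 ± 0.45, and 0.952 ± 0.172 without B326, and 16 sites had no passing construct.

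**Figure D5:**
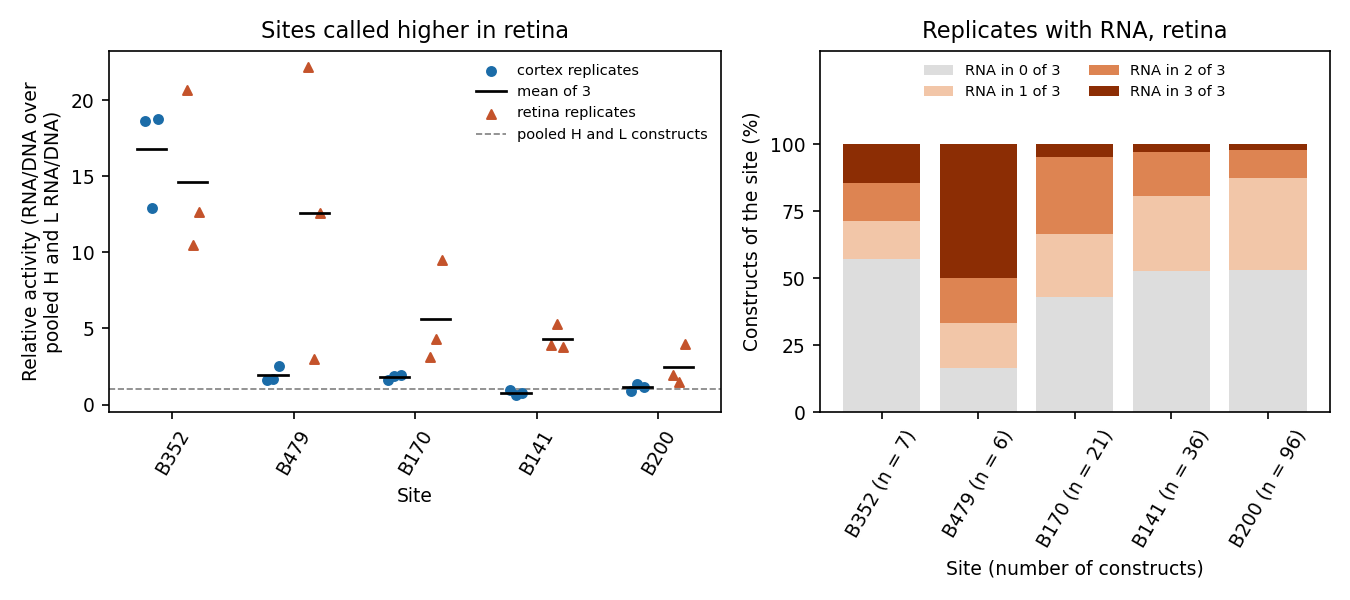
Left, relative activity by replicate (linear axis) of the 5 sites called in retina, in retina (triangles) and cortex (circles) with a bar at the mean; right, the percentage of their constructs with RNA in 0, 1, 2 or 3 retina replicates. The retina points of B141 lie between 3.78 and 5.26 and those of B479 between 2.96 and 22.2, and in each site other than B479 at most 2 constructs have RNA in all 3.

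Of the 16 sites called in cortex, 15 were tested in retina and 1 was called there, B352. Over all 16 the retina means ran from 0.0656 (B462) to 14.6 (B352) with a median of 1.39, and 3 lay above 1 and 3 below 1 in all replicates. Over the 208 sites tested in both tissues the Spearman correlation of the log2 values was 0.21, with the constructs shared. B83, for example, gave 1.48, 6.77 and 4.30 in retina, above 1 in every replicate but not called (log2 1.83, adjusted p = 0.191). B102 gave 0.286, 0.669 and 5.94 there, so replicate 3 alone lay above 1.

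The difference itself, tested as an interaction over 206 sites, called 9 sites higher in cortex (4.37%, against 4.75% of all 2000 sites) and 1 higher in retina, B141 (0.485%, against 9.1%). Among the 15 cortex-called sites it called 3. B440 gave 0.413, 1.53 and 0.305 in retina and was 2.89 lower there on the log2 scale (SE 0.67, adjusted p = 0.0177). B462 gave 0.169, 0 and 0.0278 in retina, with 34 RNA counts from 10662 DNA counts (adjusted p = 0.0246), and B272 gave 0.327, 0 and 0 (adjusted p = 0.0316). These calls rest on every cortex replicate: without replicate 1, 1 of the 9 remained (B440), and without replicate 2 or 3, 0 remained. Leaving out a retina replicate gave 18 to 28 calls, which held 5 to 7 of the 9. The fit without the replicate block called 16 higher in cortex, which held 8 of the 9 and lost B272, and 3 higher in retina. B272 was also lost without its strongest construct and without retina replicate 2 or 3. B462 was lost without its strongest construct and without retina replicate 3, and B440 without retina replicate 1 or 3. For the other 12 the difference did not pass, and for B102 it was -2.11 (SE 1.06, adjusted p = 0.269).

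Among the called sites, the 5 largest differences toward cortex came from sites with nearly no RNA in retina and mean relative activities of 0.760 (B115) to 2.23 (B158) in cortex. B158, B204, B464 and B115 had no RNA count in any retina library. A floor of 3 counts over the 3 libraries, which covers counting error only, put them at least 90.7-fold (B158), 86.2-fold (B204), 79.7-fold (B464) and 46.4-fold (B115) lower in retina. However, 71.0% of all passing constructs of B sites numbered 1 to 500 had no RNA in any retina replicate. The part of such empty constructs in these zeros was not tested, so the folds do not bound the activity of the sites. Their cortex values were 2.81, 1.84 and 2.03 for B158, 2.34, 0.254 and 1.20 for B204, 0.984, 1.85 and 0.391 for B464, and 0.896, 1.11 and 0.278 for B115. None was called in cortex, and each had 5 to 7 passing constructs. B145 had 1 RNA count from its 8 shared constructs in retina and gave 1.87, 1.56 and 1.22 in cortex. The calls of all 5 were lost without any one of the cortex replicates (adjusted p from 0.0758 to 0.137). With limma on construct means all 5 calls ended, with differences from -0.35 (B115, adjusted p = 0.712) to -2.19 (B204, adjusted p = 0.149).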

How the data were processed

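The authors deposited raw counts of reads per barcode for 3 RNA and 3 DNA libraries in cortex and as many in retina, with the fragment, strand and target of each barcode, per the file headers. The build was mm9, and the tools were bedtools 2.22.1, SAMtools 0.1.19, Bowtie2 2.1.0 and FastQC, per the submitters' processing notes, which give them no order. Sequencing ran on 1 lane per tissue, per the labels, and the replicates are separate sets of retinas or separate animals. Molecular identifiers were not used here, so reads are not independent molecules, and floors (3 counts over the libraries) cover counting error only. Columns of samples outside the series numbered 0.

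A construct was kept where each DNA library of the tissue held 10 or more of its counts. Their counts were summed per site, and sites of all classes with at least 5 such constructs were fitted together (R 4.3.3, edgeR 4.0.16, robust quasi-likelihood F test of RNA against DNA, Benjamini-Hochberg over all sites, threshold 0.05). The library size was the summed count of H and L constructs, since R constructs took most retina RNA. The replicate was a block because both kinds of library of a replicate were made from one tissue sample, per the labels. The RNA and DNA deviations of one replicate correlated at -0.043, 0.018 and 0.010 in cortex and at -0.027, -0.016 and 0.011 in retina, so the pairing rests on the labels. Retina was compared with cortex by an interaction term over 12 libraries, which used the constructs that passed in cortex and in retina alike. Each SE was derived from the log2 fold change and its F value. Pooled values were compared by exact sign-flip permutation tests, two-sided.

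The sites named are those past the threshold with one sign in all 3 replicates, up to the 25 highest and 5 lowest in cortex and the 10 highest and 5 lowest in retina, up to 5 differences in each direction, and B102 and B141. By rule, single constructs are the strongest and weakest of the 3 highest cortex sites. The construct cttatgttttcctta of B83 and those of B141, B376 and B326 fall outside this rule and were picked by their values. The members and lists were chosen with earlier results of these data known. Alternatives were other scalings, DESeq2 1.42.0, limma 3.58.1 on construct means, other minimums, and each replicate or the strongest construct of each site left out. The fits were tested on simulated counts. A search for sequence motifs was not run, since no genome of this build was used here. Some values deposited by the authors, such as normalized expression per construct, were not used. Python 3.11.15 with numpy 2.4.6, pandas 2.3.3, scipy 1.17.1 and matplotlib 3.10.9 did the rest.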

Additional observations from a re-analysis of the deposited data

Results flagged for a closer look

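By the test of the difference itself (edgeR's interaction of molecule and tissue), 10 of 206 B sites numbered 1 to 500 differed between the tissues, 1 higher in retina (0.485%, against 9.1% of all sites) and 9 higher in cortex (4.37%, against 4.75%). Of the H sites 4.77% and of the L sites 6.01% were called higher in cortex. The 6 B sites with the largest differences among the 10, up to 5 in a direction, are given here. B141 was higher in retina by 2.52 on the log2 scale (SE 0.49, adjusted p = 0.00498), with retina values of 3.91, 5.26 and 3.78 and cortex values of 0.942, 0.623 and 0.747. The other 5 were higher in cortex. B158, B204, B464 and B115 had no RNA count in retina. A floor of 3 counts over the 3 libraries put them at least 90.7-fold (B158), 86.2-fold (B204), 79.7-fold (B464) and 46.4-fold (B115) lower there. The floor covers counting error only, and does not bound the activity of a site with few constructs. B145 had 1 RNA count in retina and a difference of -9.21 (SE 2.18, adjusted p = 0.0194), a fitted size that depends on the prior count. RNA in retina was found for few constructs of any B site numbered 1 to 500, and its part in these 5 differences was not tested.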

How the results depend on the processing

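The count of 16 sites higher in cortex lay between 13 and 21 under all alternatives, and leaving out one replicate gave 15 to 19. Without a replicate block it was 17, which held all 16, and with DESeq2 20, which held all 16. Of the 234 values of named sites in cortex under an alternative, 224 kept their sign and their side of the threshold. Sites lower in cortex numbered 2 with total library sizes, 4 with DESeq2, 1 with limma and 0 to 1 with a replicate left out. The pooled relative activity was 1.40 in cortex and 1.58 in retina without the strongest construct of each site, and 1.19 and 0.0978 with library totals as the reference. Total library sizes set the zero at the mean of all RNA, which R constructs dominate in retina. With them 0 sites were higher and 109 lower in retina, and the retina log2 was -1.70 for B141, -1.46 for B170, -2.62 for B200 and -0.52 for B479. The difference then had 0 sites higher in retina and 117 higher in cortex, with B141 at -0.94.

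Sites higher in retina numbered 2 with trimmed mean of M values (TMM) scaling, 8 with DESeq2, 3 with a minimum of 8 constructs, and 2 to 5 with a replicate left out. Sites lower in retina numbered 1 with TMM, 1 with relative log expression scaling, 10 with no replicate block, 40 with DESeq2, 5 with limma and 33 without the strongest construct of each site. Sites higher in retina by the difference numbered 3 with no replicate block, 3 with DESeq2, 3 with limma, which did not hold B141, and 1 to 2 with a replicate left out. Sites higher in cortex by the difference numbered 16 with no replicate block, 64 with DESeq2, 19 with limma (4 of the 9, without B115, B145, B158, B204 and B464), 21 with a minimum of 3 constructs, 3 with a minimum of 8, and 0 to 28 with a replicate left out, the lowest without a cortex replicate. The block changed no call of a site named in cortex. Without its strongest construct B352 stood at -0.10 in cortex and -0.88 in retina. B102, near 0 in retina (-0.05), stood there at 1.11 with no replicate block, 0.13 with limma, 0.014 with a DNA minimum of 30, 0.074 without its strongest construct, and -1.19 to 1.00 with a replicate left out. The cause of these shifts was not tested. RNA was found for 9.66% to 13.6% of the constructs in a retina replicate and 60.4% to 70.5% in a cortex replicate, while the retina RNA libraries held 7025820 to 10411511 counts and the cortex ones 4000439 to 9674859. For sites without RNA in retina only a floor of 3 counts can be given. It covers counting error only and does not bound their activity.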

Other observations

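The 16 sites called in cortex lay on 12 chromosomes. B369 had the closest neighbour in the library, B916, another B site, 1.67 kb from it on chromosome 15. B205 had H627 at 7.095 kb and B48 had B99 at 7.94 kb, and neither of these neighbours was tested in cortex. B916 had a cortex log2 of 1.08 and was called too (adjusted p = 0.0167, edgeR's quasi-likelihood test), against 1.39 for B369. No other called site had a tested neighbour within its nearest 2 sites that was called. B363 and its neighbour B405, 37.4 kb away, had log2 values of 1.78 and 1.03, and B405 was not called (adjusted p = 0.512).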
